A study of Caenorhabditis elegans with 59 samples.

Results

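The 4 miRNAs described here, mir-78, mir-798, mir-1822 and mir-246, are guide strands that were chosen by how far their hairpins changed in germline-depleted glp-4(bn2) adults relative to gravid adults. mir-78 and mir-798 were selected on a level over 50-fold lower in the germline-depleted worms, and mir-1822 and the mir-246 hairpin on a higher level. They are 4 of the 310 strands in the miRNA count table, of which 303 were counted in all 59 libraries and 168 of these are guides. The data are small RNA sequencing (sRNA-seq) of whole C. elegans, with 32 libraries of a developmental time course, 4 of L1 larvae with a further ebax-1 allele and 23 of L4 larvae from an experiment on mir-43.

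Each stage of the time course had 2 libraries of the null mutant ebax-1(tm2321), strain CZ9907, and 2 of its control. The control was wild type (N2) in early embryos, late embryos, L1, L2, L3 and L4 larvae and gravid adults, all at 20 °C. Late embryos had been kept in M9 buffer for 6 h, and L1 larvae were starved hatchlings. Feeding lasted 16 h for L2, 28 h for L3, 42 h for L4 and 68 h for gravid adults. Germline-depleted adults were glp-4(bn2);ebax-1(tm2321) and glp-4(bn2), 2 libraries each, moved to 25 °C and collected after 48 h. Libraries of gravid adults are older than the rest and had been published before. The glp-4 allele, temperature, age and origin of the libraries therefore differ together between the 2 kinds of adult and cannot be told apart. A second experiment compared ebax-1(ju699), an independent allele (strain CZ9912), with wild type in L1 larvae at 20 °C (2 libraries each). The mir-43 experiment used L4 larvae of ebax-1(tm2321) (2 libraries) and wild type (3), and of 3 strains with a mutated mir-43 gene, each with and without ebax-1(tm2321) (3 libraries each). These L4 larvae were kept at 20 °C and fed for 42 h. mir-43(M1) has a changed seed, mir-43(M2) a changed 3′ region, and mir-43(M3) the 3′ region of miR-82. The study calls its small RNA replicates biological, but whether they were separate cultures is not given in the sources used here, so p-values measure the spread between these libraries.

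A miRNA is cut from a hairpin precursor as a duplex. One strand, the guide, is kept by an Argonaute protein and directs the repression of mRNAs, and the other, the passenger (marked with an asterisk), is usually discarded. EBAX-1 is the worm counterpart of ZSWIM8, the substrate receptor of a ubiquitin ligase that acts in target-directed miRNA degradation, in which pairing to certain RNAs leads to loss of the Argonaute and its guide. glp-4(bn2) worms raised at the restrictive temperature make very few germ cells, so their adults lack most of the gonad content and the embryos that a gravid adult holds. mir-246 is known from work on ageing worms, where it has been tied to lifespan. Worms also make piRNAs (21U-RNAs), germline small RNAs bound by the Argonaute PRG-1, many of them from chromosome IV.

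Libraries held 1343153 to 20538418 miRNA counts in the time course, 2433129 to 3076485 in the ju699 experiment and 302789 to 16014208 in the mir-43 experiment, where the smallest was the library labelled ebax-1(tm2321);mir-43(M3) replicate 2. Levels are given as CPM, the counts of a strand scaled to the total of miRNA counts in its library, so each value is a share of the library's miRNAs and not an amount per animal. In whole animals, fewer cells of a type and less RNA per cell cannot be told apart. Stage markers were read from the same counts. let-7, which accumulates in late larvae, averaged 12752 CPM in wild-type L4 larvae and 503 CPM in wild-type L3 larvae, and mir-35, a miRNA of the germline and embryo, averaged 105 CPM in glp-4 adults against 4731 CPM in wild-type adults.

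In the WBcel235 assembly (Ensembl annotation), mir-78 (WBGene00003306) lies on chromosome IV from 15165647 to 15165742 on the plus strand. Its annotated mature strand, 15165707 to 15165727, is 21 nt long. The hairpin overlaps 2 annotated piRNAs on the same strand. 21ur-10414 starts 3 nt and 21ur-9780 1 nt upstream of the first base of mir-78. Of the 261 annotated miRNA hairpins, 3 (1.15%) overlap a piRNA on their own strand. mir-798 (WBGene00045330) lies on chromosome IV from 14277312 to 14277387 on the minus strand, in an intron of the protein-coding gene ilcr-1, which is read from the opposite strand. Its mature strand, 14277318 to 14277338, is also 21 nt long. There are 67 piRNAs within 10 kb of mir-78 and 89 within 10 kb of mir-798. Of all 261 hairpins, 7 (2.68%), these members included, have 50 or more so close. Chromosome IV, which holds many piRNAs, carries 50 of the 261 hairpins, and the share among those was not counted. The count table lists no passenger strand for mir-78 or mir-798, as for 35 of its 168 guides. mir-1822 (WBGene00077709) lies on chromosome II from 6015534 to 6015627 on the plus strand, in an intron of ZK84.2 on the same strand, and has annotated mature strands of 24 and 22 nt. mir-246 (WBGene00003340) lies on chromosome IV from 10940134 to 10940230 on the plus strand, overlaps no other gene, and is 200 bp from fic-1, the nearest protein-coding gene. Its mature strands are 23 and 21 nt. No piRNA is annotated within 10 kb of mir-1822 or mir-246, and none of the 4 has another miRNA within 10 kb.

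mir-78 had 2.77 and 1.02 CPM in glp-4 adults, against 143 and 97.2 CPM in wild-type adults. With ebax-1 lost in both, it had 2.36 and 1.26 CPM in glp-4;ebax-1 adults, against 146 and 73.2 CPM in ebax-1 adults. The groups were far apart in both backgrounds, with a mean level 63.6-fold lower in glp-4 adults and 60.6-fold lower in glp-4;ebax-1 adults. mir-798 had 0.554 and 0.609 CPM in glp-4 adults, against 37.3 and 35.6 CPM in wild-type adults. In glp-4;ebax-1 adults it had 0.856 and 0.698 CPM, against 43.4 and 41.6 CPM in ebax-1 adults. Its mean level was 62.7-fold lower in glp-4 adults and 54.7-fold lower in glp-4;ebax-1 adults. These levels rest on few reads. The 2 glp-4 libraries together held 25 counts of mir-78 and 7 of mir-798, which gives 95% exact counting intervals of 37.1- to 84.9-fold and 30.4- to 157-fold for the ratio of pooled counts. Since these values chose the members, they are a description and were not tested. In gravid adults, the piRNA table gives counts for the 2 piRNAs that overlap the mir-78 hairpin. Scaled to all piRNA counts of a library, 21ur-10414 had 8.71 and 6.29 CPM in ebax-1 adults and 9.10 and 5.61 CPM in wild-type adults. 21ur-9780 had 8.13 and 3.33 CPM in ebax-1 adults and 12.4 and 7.40 CPM in wild-type adults, from 9 to 29 counts a library. The libraries of both overlapped between genotypes, as did those of mir-78.

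mir-1822 moved the other way. It had 84.3 and 88.2 CPM in glp-4 adults, against 4.25 and 7.01 CPM in wild-type adults, a mean level 15.3-fold higher. In glp-4;ebax-1 adults it had 47.3 and 50.4 CPM, against 2.49 and 3.56 CPM in ebax-1 adults, a mean level 16.2-fold higher. The mir-246 guide did not follow the label under which the hairpin was chosen. It had 1377 and 1347 CPM in glp-4 adults, against 1235 and 1446 CPM in wild-type adults, so the libraries overlapped and the ratio of the means was 1.02. In glp-4;ebax-1 adults it had 847 and 320 CPM, against 1698 and 1478 CPM in ebax-1 adults, a mean level 2.72-fold lower. The strand of that hairpin with the higher level was the passenger. mir-246* had 34.1 and 33.3 CPM in glp-4 adults, against 2.17 and 1.80 CPM in wild-type adults, a mean level 17.0-fold higher. It had 30.0 and 13.5 CPM in glp-4;ebax-1 adults, against 2.49 and 2.96 CPM in ebax-1 adults, a mean level 7.98-fold higher. In descending order of the ratio of glp-4 to wild-type means, mir-246* and mir-1822 were numbers 1 and 2 of 220 strands. In the ebax-1 background mir-1822 was number 2 and mir-246* number 4 of 218.

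**Figure D1:**
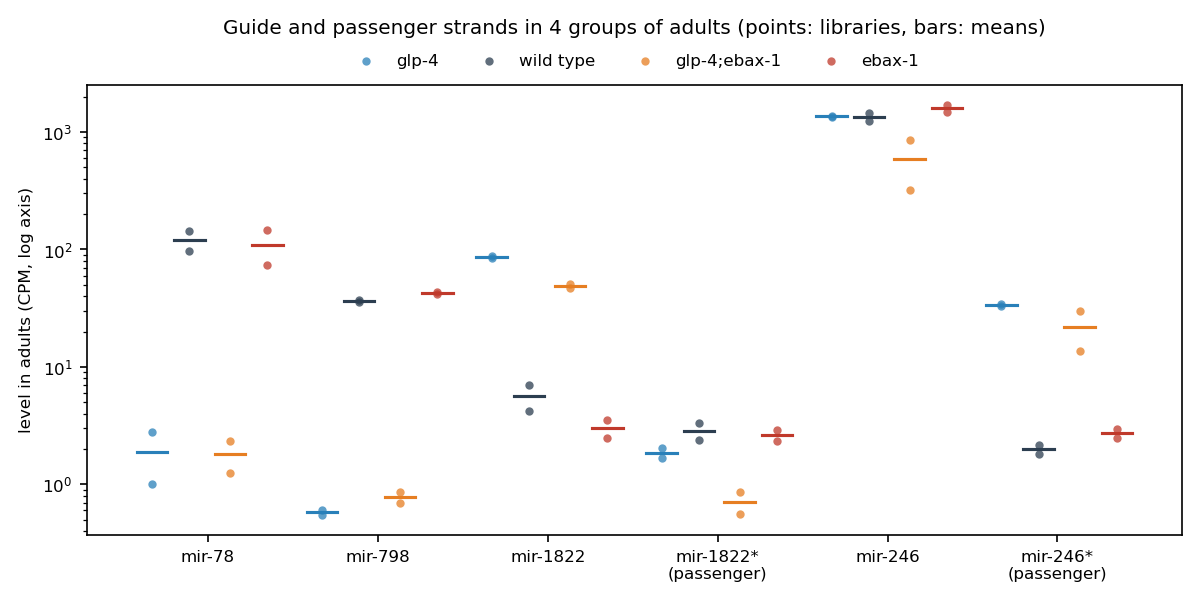
Levels of the 4 guides and of the 2 listed passenger strands in adults, in CPM on a log axis, with a point for each library and a bar for the mean of 2 libraries. mir-78 and mir-798 are lower in glp-4 and glp-4;ebax-1 adults, mir-1822 and mir-246* are higher, and the mir-246 guide overlaps between glp-4 and wild-type adults.

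The 2 strands of a hairpin did not change in proportion. The mir-1822 guide made up 98.1% (95% Wilson interval 96.7 to 98.9) and 97.7% (95.9 to 98.8) of the counts of both strands in glp-4 adults, against 56.3% (45.3 to 66.6) and 74.6% (68.0 to 80.2) in wild-type adults. Pooled over libraries, there were 47.4 guide counts per passenger count in glp-4 adults, against 2.25 in wild-type adults, and 72.8 in glp-4;ebax-1 adults, against 1.18 in ebax-1 adults. These ratios rest on 22, 84, 8 and 62 passenger counts, in that order. mir-1822* averaged 1.85 CPM in glp-4 adults and 2.84 CPM in wild-type adults, and 0.708 CPM in glp-4;ebax-1 adults and 2.63 CPM in ebax-1 adults, so the passenger was lower where the guide was higher. In mir-246 the imbalance ran the other way, with 40.4 guide counts per passenger count in glp-4 adults, against 713 in wild-type adults, and 26.4 in glp-4;ebax-1 adults, against 553 in ebax-1 adults. At the L4 stage, the pooled ratio for mir-246 was 22.3 in ebax-1 larvae and 14.2 in wild-type larvae, so gravid adults stood apart from both the stage before and the germline-depleted adults. Intervals on counts cover counting error only, since the reads carry no molecular identifiers. The adult levels of the mir-1822 guide and the mir-246 hairpin chose these members. Their adult shares and ratios are therefore a description and were not tested.

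**Figure D2:**
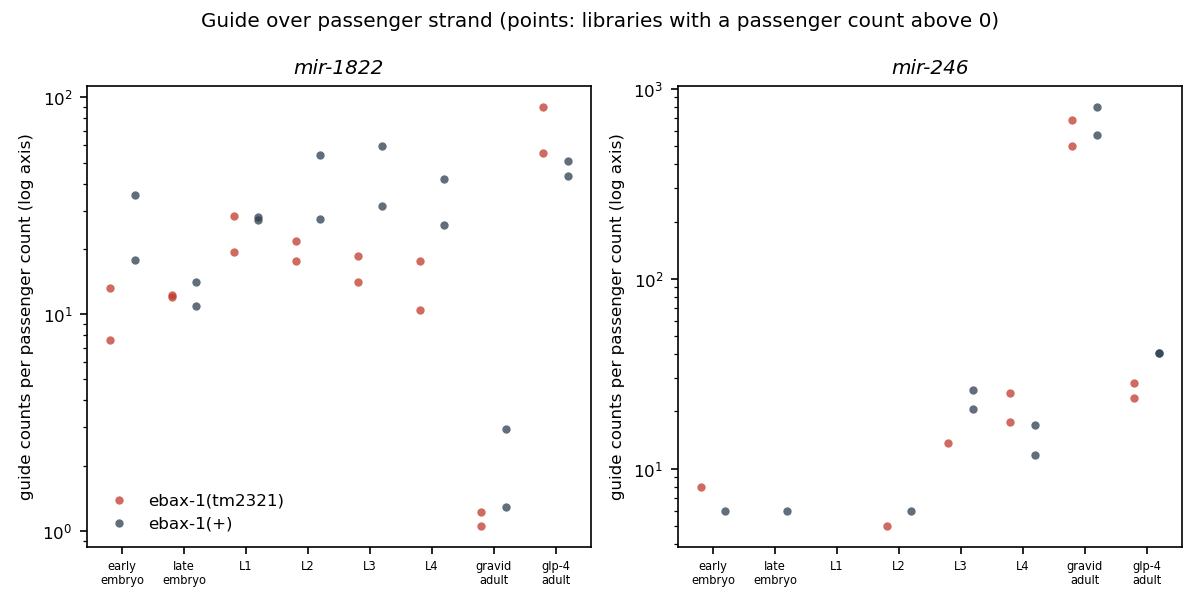
Counts of the guide strand per count of the passenger strand for mir-1822 and mir-246 across the time course, on a log axis, with a point for each library in which the passenger had a count above 0. In gravid adults the ratio is lowest for mir-1822 (2.25 in wild type, pooled) and highest for mir-246 (713 in wild type, pooled).

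Strands of other hairpins fell as far. Among 220 strands whose CPM + 1 averaged 5 or more over glp-4 and wild-type adults, 8 (3.64%) had a mean more than 50-fold lower in glp-4 adults. Besides mir-78 and mir-798 these were mir-36, mir-37*, mir-39, mir-39* and mir-41-5p, all strands of the mir-35 to mir-41 cluster, and mir-1834, which was singled out after its values had been seen. Just inside the threshold, mir-36 was 52.5-fold lower, and just outside it mir-35 was 45.1-fold lower. Between glp-4;ebax-1 and ebax-1 adults, 3 of 218 strands (1.38%) passed 50-fold, namely mir-41-5p, mir-78 and mir-798. The cluster guides were less reduced there, since mir-39, for example, had a mean of 1282 CPM in glp-4;ebax-1 adults and 13141 CPM in ebax-1 adults, 10.2-fold lower, against 55.4 and 5761 CPM in glp-4 and wild-type adults. For mir-78 and mir-798 the ratio differed little between backgrounds, as given above.

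The drop can be set beside miRNAs described as germline-enriched, a list of mir-35 to mir-42, mir-43 and mir-70. All 10 of these were more than 2-fold lower in glp-4 than in wild-type adults, with a median ratio of 0.0264, where the median over all 220 strands was 0.824. In the ebax-1 background 8 of 10 were, with a median ratio of 0.142, beside 0.912 over 218 strands. Of 5 heat-responsive miRNAs (mir-230, mir-239b, mir-247, mir-788-5p and mir-797), listed because the germline-depleted worms were kept at the higher temperature, 0 differed by over 2-fold between glp-4 and wild-type adults, with a median ratio of 1.13. In the ebax-1 background 2 were over 2-fold higher and 1 over 2-fold lower. The paper names these 5 among miRNAs elevated on EBAX-1 loss, so the list is not a general set of heat-responsive miRNAs. The list of lifespan miRNAs that holds mir-246 (lin-4, mir-71, mir-238, mir-239a, mir-239b and mir-246) had a median ratio of 1.06 in glp-4 over wild-type adults. Markers of somatic tissue were present in all adults. The muscle miRNA mir-1 averaged 17249 CPM in glp-4 and 22316 CPM in wild-type adults, and the intestinal mir-60-3p averaged 26881 CPM in glp-4 and 18392 CPM in wild-type adults. The parts of temperature and of cell composition in the members' changes were not tested, and these differ together between the 2 kinds of adult.

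Over wild-type development, mir-78 was high at both ends. It had 70.9 and 95.5 CPM in early embryos, 27.5 and 20.6 in late embryos, 35.9 and 46.5 in L1, 19.7 and 14.2 in L2, 15.9 and 17.1 in L3, 46.1 and 58.0 in L4 and 143 and 97.2 in gravid adults. Ranked by mean, gravid adults led, followed by early embryos, L4, L1, late embryos, L2 and L3, and only L4 and L1 and then L2 and L3 overlapped as neighbours in that order. Steps between consecutive stages from early embryo to L4 were tested in a fit of the 12 wild-type libraries with edgeR (quasi-likelihood test, Benjamini-Hochberg adjustment over 230 strands, threshold 0.01). mir-78 fell in late relative to early embryos (log2 fold change -1.96, SE 0.21, adjusted p = 9.96e-06) and in L2 relative to L1 (-1.34, SE 0.23, adjusted p = 0.000542), and rose in L4 relative to L3 (1.76, SE 0.22, adjusted p = 3.6e-05). In ebax-1 larvae the L4 over L3 step was 0.55 (adjusted p = 0.122). The L2 call was lost without wild-type L2 replicate 2 (adjusted p = 0.0143). Steps are common in these data, as 43.5% of strands passed from early to late embryo, 61.7% from late embryo to L1, 39.6% from L1 to L2, 44.3% from L2 to L3 and 43.9% from L3 to L4.

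mir-798 was scarce until the last larval stage. It had 15.5 and 11.9 CPM in wild-type early embryos, 6.95 and 5.68 in late embryos, 11.3 and 7.97 in L1, 4.38 and 3.55 in L2, 9.25 and 15.2 in L3, 68.9 and 102 in L4 and 37.3 and 35.6 in gravid adults. The highest level was thus in L4 larvae, and the libraries of early embryos, L3 and L1, which followed gravid adults in the order, overlapped from one to the next. mir-798 fell in late relative to early embryos (log2 -1.34, SE 0.31, adjusted p = 0.00321) and rose in L3 relative to L2 (1.66, SE 0.38, adjusted p = 0.0029) and in L4 relative to L3 (2.93, SE 0.26, adjusted p = 1.5e-06, a 7.62-fold rise). The fall in late embryos was lost without early embryo replicate 1 (adjusted p = 0.142), without either late embryo library (0.0112 and 0.023) or without L2 replicate 1 (0.011). The L3 rise was lost without either L2 library (0.0216 and 0.0483) or without L3 replicate 2 (0.0154). With as few as 10 counts of mir-798 in an L2 library, depth limits these steps.

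mir-1822 had its lowest level by far in gravid adults. It had 95.4 and 146 CPM in wild-type early embryos, 194 and 171 in late embryos, 129 and 162 in L1, 71.0 and 69.7 in L2, 121 and 137 in L3, 89.8 and 101 in L4 and 4.25 and 7.01 in gravid adults. From L1 to L4 through L3 and early embryos, neighbours in the order overlapped, and gravid adults lay below every other group. It fell in L2 relative to L1 (log2 -1.08, SE 0.19, adjusted p = 0.000639) and rose in L3 relative to L2 (0.91, SE 0.19, adjusted p = 0.00179). That rise was lost without either L2 library (adjusted p = 0.017 and 0.0184) or without L3 replicate 2 (0.0101), and ebax-1 larvae gave a log2 change of -0.09 for the same step. As a description, its mean in wild-type gravid adults was 16.9-fold lower than in L4 larvae. Ordered by the log2 ratio of mean CPM + 1, which shrinks low values, it was number 2 of 224 strands after let-7* and just before mir-246*. The same gravid adult libraries entered the choice of mir-1822 and the mir-246 hairpin, so these places follow in part from the choice. In glp-4 adults it was close to the L4 level, with 86.2 CPM on average, against 95.2 CPM in wild-type L4 larvae (ratio 0.906). ebax-1 worms showed the same order, 15.8-fold lower in gravid adults than in L4 larvae, with a ratio of 1.02 between glp-4;ebax-1 adults and ebax-1 L4 larvae.

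mir-246 was scarce before the L4 stage. It had 1.79 and 1.03 CPM in wild-type early embryos, 1.30 and 0.891 in late embryos, 6.19 and 2.88 in L1, 2.63 and 1.01 in L2, 6.54 and 6.00 in L3, 494 and 701 in L4 and 1235 and 1446 in gravid adults. The rise in L4 relative to L3 was 101-fold (log2 6.66, SE 0.31, adjusted p = 5.61e-09), number 6 of 230 strands. Smaller rises in L1 relative to late embryos (1.76, SE 0.43, adjusted p = 0.00311) and in L3 relative to L2 (1.97, SE 0.49, adjusted p = 0.00473) rested on 4 to 41 counts a library. The first was lost without late embryo replicate 2 (adjusted p = 0.0252) or L1 replicate 1 (0.0475), and the second without either L2 library (0.0109 and 0.109) or L3 replicate 1 (0.0197). The passenger appeared with the guide, since mir-246* had 41.6 and 41.3 CPM in L4 against 0.319 and 0.231 CPM in L3, a pooled ratio of 146 with a 95% exact counting interval of 49.7 to 713. It then stood 20.9-fold lower in gravid adults than in L4 larvae, while the guide was 2.24-fold higher. The gravid adult levels of this hairpin entered its choice, so this is a description.

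**Figure D3:**
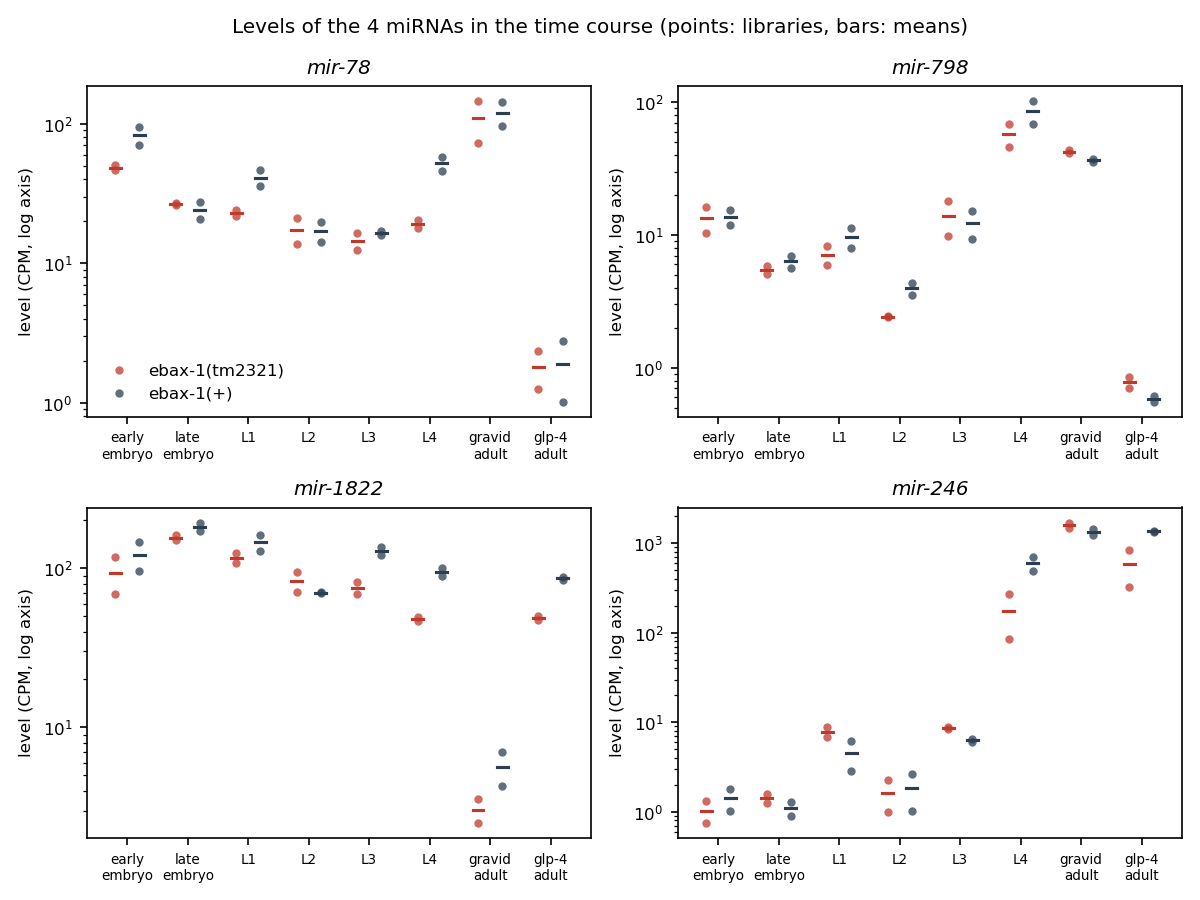
Levels of mir-78, mir-798, mir-1822 and mir-246 at each stage in ebax-1(tm2321) worms (left of each pair) and their controls, in CPM on a log axis, with a point for each library and a bar for the mean of 2 libraries. mir-78 and mir-798 are lowest in glp-4 adults, mir-1822 is lowest in gravid adults, and mir-246 lies below 10 CPM until L3 and at 494 and 701 CPM in wild-type L4 larvae.

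Profiles over the 14 group means of the time course without glp-4 were compared by Pearson's r of log2(CPM + 1), as a description across groups that share libraries, depth and scaling. The guides most like mir-78 were mir-82 (r = 0.85), mir-359 (0.82) and mir-1817 (0.65). Those most like mir-798 were mir-240-3p (0.91), mir-786 (0.90) and mir-2212 (0.90). None of these 6 was reduced in glp-4 adults as mir-78 and mir-798 were, with ratios to wild-type adults of 0.879 for mir-1817 to 1.48 for mir-240-3p. This contrast follows largely from the choice of mir-78 and mir-798 on a drop that 8 of 220 strands (3.64%) showed. For mir-1822 they were mir-52 (0.78), mir-57 (0.73) and mir-2 (0.71), with ratios in glp-4 adults of 1.12 for mir-52, 1.23 for mir-57 and 1.18 for mir-2. mir-246 had the closest partners, mir-85 (0.99), mir-59 (0.97) and mir-786 (0.97), with ratios of 0.809 for mir-85, 1.12 for mir-59 and 1.14 for mir-786. With the 2 groups of glp-4 adults added, 6 of the 12 names stayed the same, and those of mir-78 and mir-798 changed to each other, mir-787, mir-74, mir-1834 and mir-250. Since mir-78 and mir-798 were chosen on their low level in the added groups, this change follows in part from the choice.

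The effect of ebax-1 loss was tested at each stage with edgeR on the 2 mutant and 2 control libraries, with adjustment over all strands tested. Of the 4 members, mir-78 in early embryos alone passed the threshold of 0.01. It had 50.6 and 46.4 CPM in ebax-1 early embryos, against 70.9 and 95.5 CPM in wild type (log2 -0.68, SE 0.19, adjusted p = 0.00357), where 18.9% of strands passed. That call did not hold with DESeq2 (adjusted p = 0.0133), in a fit of all 32 libraries (0.273), or without wild-type replicate 2 (0.096), ebax-1 replicate 1 (0.14) or ebax-1 replicate 2 (0.27), where the lone library left in its group was assumed to vary like the other group. Stage markers differed in some of these comparisons. lin-4, which accumulates in larvae, averaged 1.11 CPM in ebax-1 and 33.7 CPM in wild-type early embryos, and let-7 averaged 49.6 CPM in ebax-1 and 2.97 CPM in wild-type L1 larvae, and their part in the members' values was not tested. In this fit, which left out replicate numbers, no member passed in late embryos (18.4% of strands did), L1 (8.21%), L2 (8.17%), L3 (11.1%), L4 (5.38%), gravid adults (0.448%) or germline-depleted adults (5.83%), or with ju699 in L1 (4.65%). With the number as a block, mir-78 (edgeR adjusted p = 0.00121) and mir-246 (0.0017) passed in L1, where 37 of 207 strands did. mir-1822 passed in L3 (0.00391), where 54 of 217 did, and the mir-78 call in early embryos was lost (0.0232). mir-798 in L2 larvae, mir-246 in early embryos, late embryos and L2 larvae, and mir-78 and mir-798 in germline-depleted adults were below the filter on low values and were not tested.

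Several differences fell short of the threshold. In L1, mir-78 had 23.9 and 21.8 CPM in ebax-1 larvae, against 35.9 and 46.5 CPM in wild type (log2 -0.67, SE 0.17, adjusted p = 0.0632), and in late embryos it ran the other way (0.33, adjusted p = 0.0766). At L4, mir-78 had 17.8 and 20.3 CPM in ebax-1 L4 larvae, against 46.1 and 58.0 CPM in wild type (log2 -1.30, SE 0.29, adjusted p = 0.0332). mir-1822 had 81.9 and 69.2 CPM in ebax-1 L3 larvae, against 121 and 137 CPM in wild type (-0.66, SE 0.14, adjusted p = 0.0328), and 46.3 and 49.4 CPM in ebax-1 L4 larvae, against 89.8 and 101 CPM in wild type (-0.84, SE 0.27, adjusted p = 0.0803). In each of these larval comparisons the ebax-1 libraries lay below the wild-type libraries, as did 53.1% of all strands in L1, 53.9% in L3 and 41.3% in L4. None of these comparisons passed the edgeR test in the fit without replicate numbers. mir-246 had 269 and 84.5 CPM in ebax-1 L4 larvae, against 494 and 701 CPM in wild type (-1.62, SE 0.55, adjusted p = 0.1), and mir-246* had 10.7 and 4.82 CPM, against 41.6 and 41.3 CPM (-2.28, SE 0.41, adjusted p = 0.0175). The stage marker let-7 moved in the same libraries, with 4900 and 7444 CPM in ebax-1 L4 larvae, against 11803 and 13701 CPM in wild type, and its part in these differences was not tested. In germline-depleted adults, mir-1822 had a log2 difference of -0.79 (SE 0.17, adjusted p = 0.0543) and mir-246 of -1.16 (SE 0.51, adjusted p = 0.198). The mir-246 value rests on which glp-4;ebax-1 library is used, at -2.03 without replicate 1 (adjusted p = 1.18e-05) and -0.60 without replicate 2 (adjusted p = 0.305), each with a lone library assumed to vary like the controls. Of the 10 germline-enriched miRNAs, 9 passed the edgeR test as higher and 0 as lower in ebax-1 L4 larvae, where 5.38% of strands passed. Their median log2 fold change was 2.53, beside 0.01 over all 223 strands. The list holds mir-35 to mir-42 and mir-43, which the paper reports as sensitive to EBAX-1 loss. The remaining one, mir-70, was lower, at 15296 CPM on average in ebax-1 and 25020 CPM in wild-type L4 larvae.

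**Figure D4:**
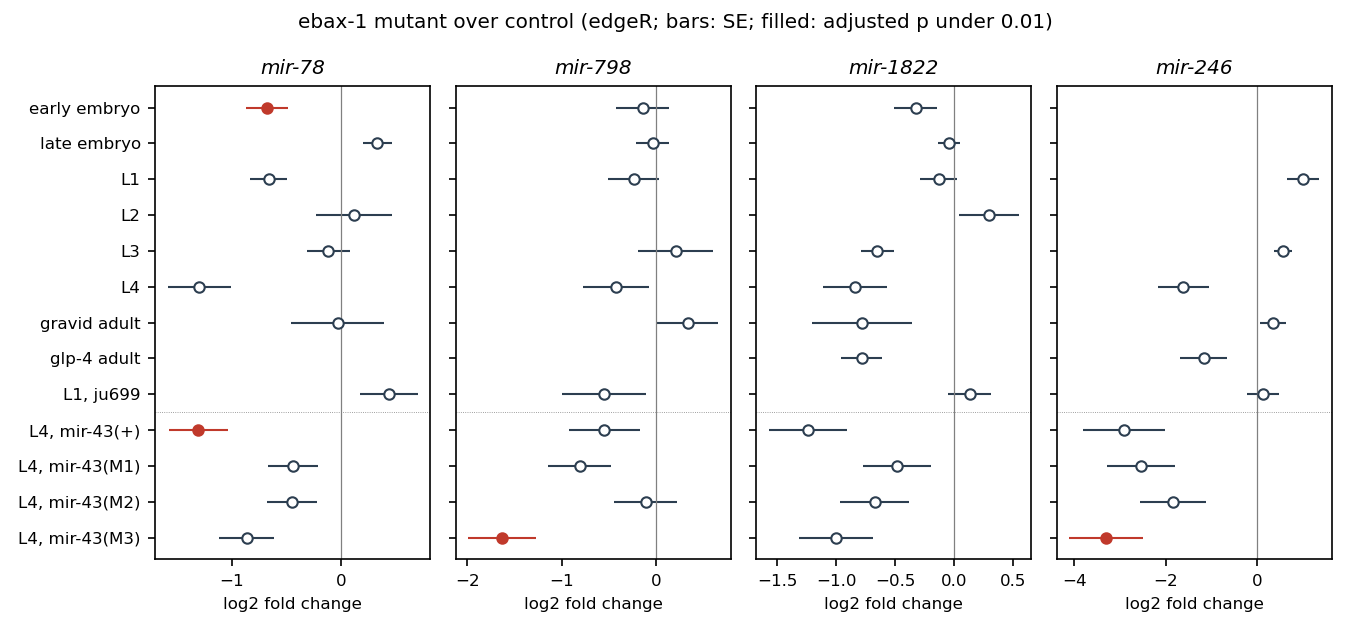
Log2 fold change of each member in ebax-1 mutants over their controls, with its SE, at each stage of the time course, for ju699 in L1 and in the 4 mir-43 backgrounds of L4 larvae. Filled points have an adjusted p under 0.01, and combinations below the filter on low values are left blank. All 16 values in the mir-43 experiment lie below 0, but mir-798 in mir-43(M2) lies within its SE of 0 (-0.11, SE 0.33). Over all 221 strands the median of ebax-1 over wild type in that experiment was -0.0384.

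Whether the ebax-1 effect differed between the 6 stages from early embryo to L4 was tested as an interaction in a fit of their 24 libraries, in which 23% of 226 strands passed. It passed for mir-78 (adjusted p = 0.00177), whose log2 effects ran from 0.33 in late embryos to -1.30 in L4, and for mir-1822 (0.007), with effects from 0.29 in L2 to -0.84 in L4. It did not pass for mir-246 (0.0212), which met the filter only through its L4 level, or for mir-798 (0.768). The mir-1822 call was not stable, as it was lost with scaling by library size (0.0698) and in 17 of the fits that left out 1 library, with adjusted p of 0.01 to 0.0453. That of mir-78 was lost without ebax-1 L4 replicate 1 (0.0141), and that of mir-246 was gained without the same library (7.51e-05), without ebax-1 L4 replicate 2 (0.00947) or without ebax-1 L2 replicate 2 (0.00813). In L1 larvae, ju699 and tm2321 were compared as the difference of their effects. No strand passed (0% of 207, with 33 at an unadjusted p under 0.05), and for mir-78 the difference was 1.09 (SE 0.33, adjusted p = 0.141). With ju699 mir-78 had 43.1 and 33.6 CPM, against 31.2 and 38.2 CPM in its wild type (edgeR log2 0.44, SE 0.26, adjusted p = 0.482). With tm2321 the log2 effect in L1 was -0.67, so the 2 estimates had opposite signs and neither passed in the fit without replicate numbers.

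In L4 larvae of the mir-43 experiment, 8 groups were fitted together with edgeR. mir-78 had 16.6 and 18.0 CPM in ebax-1 larvae, against 53.4, 32.7 and 56.3 CPM in wild type, 2.48-fold lower (log2 -1.31, SE 0.27, adjusted p = 0.00215), where 5.43% of strands passed. The call was lost without wild-type replicate 3 (0.0107) or either ebax-1 library (0.0428 and 0.0328, with the remaining one assumed to vary like the other groups). In the same comparison mir-246 had 32.1 and 23.2 CPM in ebax-1 larvae, against 66.4, 163 and 488 CPM in wild type (log2 -2.92, SE 0.89, adjusted p = 0.0267), and mir-1822 had 18.2 and 20.0 CPM, against 68.7, 37.4 and 42.6 CPM (-1.24, SE 0.33, adjusted p = 0.0164). Neither passed with edgeR, and both did with DESeq2 (adjusted p = 0.00181 for mir-246 and 0.00289 for mir-1822). The ebax-1 group has no replicate 3, and replicate 3 held the lowest mir-70 level of every group that has one. In wild type, mir-70 had 1772 CPM in replicate 3, against 10838 and 14176 CPM in the other libraries. In ebax-1 larvae it had 8130 and 10529 CPM. The part of this imbalance in the mir-78, mir-246 and mir-1822 values was not tested. In the mir-43(M3) background, mir-798 had 19.9, 26.4 and 30.1 CPM in ebax-1;mir-43(M3) larvae, against 75.3, 86.1 and 88.0 CPM in mir-43(M3) (log2 -1.63, SE 0.36, adjusted p = 0.00281), where 15.4% passed. mir-246 had 8.59, 26.4 and 34.8 CPM in ebax-1;mir-43(M3) larvae, against 58.2, 222 and 444 CPM in mir-43(M3) (-3.30, SE 0.81, adjusted p = 0.00601). All libraries of the mutant lay below those of the control for both, as for 24.2% of all strands, and single libraries decided the calls. For mir-798 the adjusted p was 0.0254 without ebax-1;mir-43(M3) replicate 1, and 0.0121 and 0.0142 without mir-43(M3) replicate 2 or 3. For mir-246 it was 0.0376 and 0.02 without ebax-1;mir-43(M3) replicate 1 or 2, and 0.0126 and 0.0365 without mir-43(M3) replicate 2 or 3. mir-246* passed there too (-2.72, SE 0.73, adjusted p = 0.00957).

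No member passed between ebax-1;mir-43(M1) and mir-43(M1) (8.14% of strands did) or between ebax-1;mir-43(M2) and mir-43(M2) (7.24%) in the fit without replicate numbers. In these backgrounds and in mir-43(M3) the numbers were taken to pair the libraries, from the counts alone. With the number as a block, mir-246 passed in mir-43(M1) (log2 -2.67, adjusted p = 0.00108) and in mir-43(M2) (-2.08, adjusted p = 0.00599), against -2.54 (adjusted p = 0.0241) and -1.84 (adjusted p = 0.101) without it. The values were 17.6, 43.7 and 55.8 CPM in ebax-1;mir-43(M1), against 238, 236 and 275 CPM in mir-43(M1), and 22.4, 96.1 and 112 CPM in ebax-1;mir-43(M2), against 216, 396 and 280 CPM in mir-43(M2). In the wild-type L4 larvae of this experiment, where mir-246 spread widely, let-7 had 2322, 8724 and 12069 CPM in the same order of libraries as mir-246 above. In mir-43(M3) larvae let-7 was lower with ebax-1 lost, at 3982, 2170 and 8319 CPM, against 6834, 9451 and 14283 CPM, and its part in the mir-246 and mir-798 results was not tested. Without ebax-1 loss, no member passed in mir-43(M1) (0.452% of strands did), mir-43(M2) (1.81%) or mir-43(M3) (1.81%) relative to wild type.

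**Figure D5:**
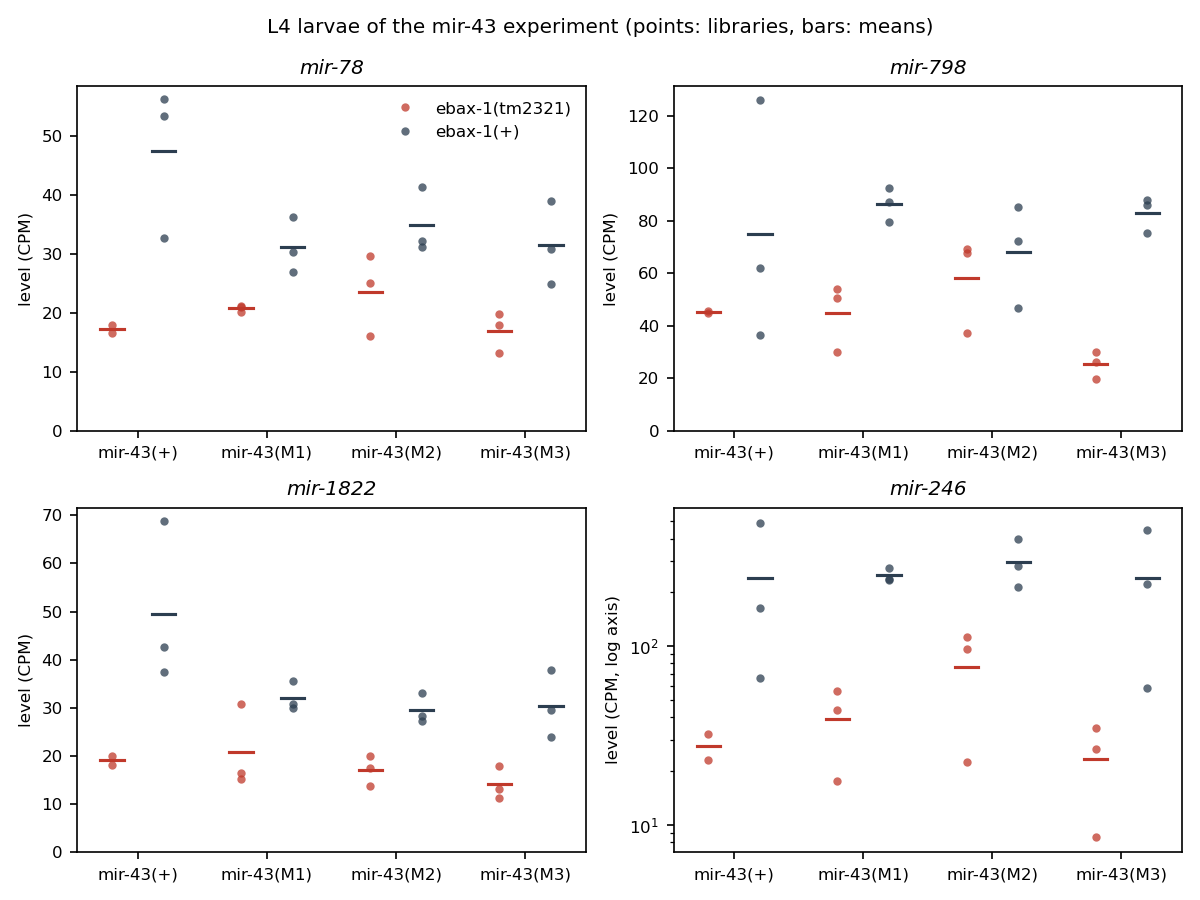
Levels of the 4 members in L4 larvae of the mir-43 experiment, in CPM (log axis for mir-246), for ebax-1(tm2321) larvae (left of each pair) and controls in 4 mir-43 backgrounds, with a point for each library and a bar for the mean. The mutant libraries of mir-78, at 13.2 to 29.6 CPM, and those of mir-246 lie below their own controls in every background. So do those of 35.3% of all strands in mir-43(+), 29.7% in mir-43(M1), 38.5% in mir-43(M2) and 24.2% in mir-43(M3).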

How the data were processed

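The deposited values used here are read counts per miRNA strand (59 libraries), with piRNA counts of gravid adults for 2 piRNAs. The authors trimmed adapters (cutadapt, version not given in the sources used here), assigned reads to miRNAs by their 5′ bases, and counted reads matching piRNAs perfectly. Spike-in counts were not used here. piRNA columns name the strain only, and were taken as adults from the methods. CPM were computed per total miRNA counts. Tests used edgeR 4.0.16 in R 4.3.3 (TMM, quasi-likelihood, Benjamini-Hochberg over all strands, threshold 0.01) on strands whose CPM + 1 averaged 5 or more over control libraries (over all libraries in the stage steps and interactions), after checks on simulated data. DESeq2 1.42.0, library-size scaling, no filter, a threshold of 0.05, replicate blocks and leaving out each library were alternatives. Tables and figures used Python 3.11.15. The authors used DESeq2 themselves.

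The members and lists were chosen with earlier results of these data known. Named strands are the members, their other strands, the 3 guides most like each, those next to the 50-fold threshold and up to 4 of each list, or all where a list is spelled out. Same-numbered libraries were compared by the correlation of their deviations from group means. It exceeded 0.1 for all 3 pairs between ebax-1;mir-43 and mir-43 strains in each mir-43 background (0.106 to 0.439) and between mir-43(M3) and wild type, and not elsewhere in that experiment. No 2 replicates held identical counts.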

Additional observations from a re-analysis of the deposited data

Results flagged for a closer look

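The ebax-1 effect on mir-78 and mir-1822 differed between the 6 stages from early embryo to L4 by the interaction test of edgeR (adjusted p = 0.00177 and 0.00700), and the second call was lost under most alternatives. 2 more differences between stages were seen in the libraries and were not tested. For mir-246, both ebax-1 libraries lay below both controls in L4 larvae (ratio of mean CPM 0.296) and in germline-depleted adults (0.428), and above both in gravid adults (1.18). For mir-798, both ebax-1 libraries lay below both controls in L4 larvae (0.674) and above both in gravid adults (1.17). In L4 larvae 41.3% of all strands lay below in this way and 22.9% above. Among gravid adults the shares were 33.6% below and 13.9% above, and with the germline depleted they were 35% below and 26.7% above, so such separations are common with 2 libraries a group. No cause was tested.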

How the results depend on the processing

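Calls of the 4 members in all comparisons of a family were counted under each alternative. For ebax-1 at each stage, 1 call in the reported fit became 3 with DESeq2, 3 with the replicate number as a block and 3 at a threshold of 0.05, and 0 to 2 without 1 library. For the wild-type steps, 11 calls became 6 in ebax-1 in place of wild-type libraries and 7 to 12 without 1 library, and the L3 over L2 step of mir-1822 turned to a log2 change of -0.0927 (adjusted p = 0.759) in ebax-1 larvae. For the interaction with stage, 2 calls became 1 with library-size scaling, 1 with the replicate block and 1 to 3 without 1 library. In the mir-43 experiment, 3 calls became 7 with DESeq2, 6 with the block and 8 at 0.05, and 1 to 4 without 1 library. The allele comparison had 0 calls throughout. Calls for ebax-1 over all strands also moved. In L1 there were 17, against 28 with DESeq2 and 37 with the replicate block. L3 larvae had 24, against 42 with DESeq2 and 54 with the block, and L4 larvae 12, against 37 with DESeq2 and 0 with the block. Gravid adults had 1, against 10 with DESeq2 and 0 with the block, and germline-depleted adults 12, against 32 with DESeq2 and 21 with the block. Early embryos had 39, against 16 with the block, and ju699 had 10, against 18 with DESeq2. In the mir-43 experiment, ebax-1 over wild type had 12, against 38 with DESeq2, ebax-1;mir-43(M1) over mir-43(M1) had 18, against 33 with either, and mir-43(M1) over wild type had 1, against 0 with DESeq2 and 2 with the block. DESeq2 was not run for the 2 interactions. The cause of these shifts was not tested, beyond the fewer libraries of a fit that leaves one out.

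The number of strands over 50-fold lower in glp-4 adults was 8, 6 with TMM scaling, and 6 to 14 without 1 library, the 14 arising without wild-type adult replicate 2. The log2 ratio of mir-78 ran from -6.89 to -5.44 and that of mir-798 from -6.04 to -5.90 without 1 library. For the mir-246 guide in glp-4;ebax-1 over ebax-1 adults, whose 2 glp-4;ebax-1 libraries were far apart, it ran from -2.31 to -0.91. Of the 12 names of like profiles, 6 were kept with glp-4 adults included. Deviations of same-numbered libraries also correlated above 0.1 in L1 larvae (0.204), gravid adults (0.452) and the ju699 experiment (0.205). They did not in L2 (-0.0338) or L4 larvae (-0.0491), or with the germline depleted (0.0762). Whether the numbers pair libraries at these stages was not tested. In the time course and in the other comparisons of the mir-43 experiment, the sources used here do not say whether same-numbered libraries were grown together. For its estimate of degraded miRNA, the paper scaled wild type to the mutant of the same replicate. It also gave fold changes for each replicate in the mir-43 experiment, and the 2 glp-4 strains were cultured in parallel. In these comparisons the replicate block changed calls of mir-78 in early embryos (lost, adjusted p = 0.0232) and L1 (gained, 0.00121), mir-246 in L1 (gained, 0.0017), mir-1822 in L3 (gained, 0.00391), mir-1822 by stage (lost, 0.01) and mir-1822 in ebax-1 over wild type (gained, 0.00984). In early embryos, late embryos and L3 larvae, where same-numbered libraries deviated in opposite directions (correlation -0.226, -0.131 and -0.467), crossing the numbers, an alternative chosen after seeing the data, left 1 call. With 2 libraries a group and as few as 3 counts of mir-798 in a glp-4 library, depth and replicate number limit the lowest values.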
